A study of Mus musculus with 6 samples.

Results

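Glycolysis and the entry of pyruvate into mitochondria are catalysed in the testis by paired enzymes, of which 1 form is made in germ cells and the other in most cells of the body. The pairs described here were lactate dehydrogenase (Ldhc in germ cells, Ldha in somatic cells), phosphoglycerate kinase (Pgk2, Pgk1), glyceraldehyde-3-phosphate dehydrogenase (Gapdhs, Gapdh), the E1 alpha subunit of pyruvate dehydrogenase (Pdha2, Pdha1) and phosphoglycerate mutase (Pgam2, Pgam1). All probe sets whose platform annotation gives exactly 1 of these 10 gene symbols were taken, of 18194 genes named on the array. They were 16 of its 45101 probe sets (sets of short probes that read a stretch of 1 transcript), 6 for the germ cell forms and 10 for the somatic forms. The rule itself uses no measured value, although the members were proposed with earlier results of these data in view.

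The data are Affymetrix expression values from whole testes of 12 week old mice, 3 of them Alkbh1 knockouts (KO, genotype given as C53/BL6, Alkbh1-/-, source given as C57/BL6) and 3 wild type (WT, the same strain names without the deletion). Alkbh1 encodes a dioxygenase of the AlkB family, and the comparison asks what its loss changes in testis RNA. Each mouse gave 1 array, and the number of arrays limited the precision. The labels give RNA integrity numbers from 9.8 to 10, and they do not say which part of Alkbh1 was deleted. Whole testis holds somatic cells and all stages of germ cells, so that fewer cells of a type and less RNA per cell cannot be told apart.

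Ejaculated and epididymal sperm depend on glycolysis along the tail for the ATP that drives motility. Many of its enzymes are switched to germ cell forms in meiosis or in spermatids, and some of these are anchored in the fibrous sheath of the tail. Pgk1 and Pdha1 lie on the X chromosome, which is silenced in meiosis, and their germ cell partners Pgk2 (chromosome 17) and Pdha2 (chromosome 3) are intronless autosomal copies. Ldhc and Ldha are neighbours on chromosome 7, where Gapdhs lies too, while Gapdh is on chromosome 6, Pgam2 on chromosome 11 and Pgam1 on chromosome 19.

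The stretches before the transcription start differ between the forms in their content of CpG dinucleotides, and the lactate dehydrogenase and phosphoglycerate kinase pairs are shown because they include a neighbouring gene pair and an autosomal copy beside its X-linked source. The 250 bases upstream of the first RefSeq start listed (GRCm38.p6) are written 5′ to 3′ on the gene's strand, with CpG in capitals. They are chr7:46861013-46861262 on the plus strand for Ldhc, chr7:46845554-46845803 on the plus strand for Ldha, chr17:40208610-40208859 on the minus strand for Pgk2 and chrX:106186850-106187099 on the plus strand for Pgk1.
Ldhc: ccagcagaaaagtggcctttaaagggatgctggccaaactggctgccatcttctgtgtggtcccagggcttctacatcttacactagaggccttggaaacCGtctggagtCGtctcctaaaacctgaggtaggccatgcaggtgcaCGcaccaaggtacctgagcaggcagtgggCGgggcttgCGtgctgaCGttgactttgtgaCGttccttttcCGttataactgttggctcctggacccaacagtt
Ldha: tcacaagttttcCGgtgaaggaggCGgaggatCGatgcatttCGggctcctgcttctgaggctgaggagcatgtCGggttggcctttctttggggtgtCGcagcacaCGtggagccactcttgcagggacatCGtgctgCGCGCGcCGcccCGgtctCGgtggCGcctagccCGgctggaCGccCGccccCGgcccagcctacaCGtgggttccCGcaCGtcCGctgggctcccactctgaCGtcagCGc
Pgk2: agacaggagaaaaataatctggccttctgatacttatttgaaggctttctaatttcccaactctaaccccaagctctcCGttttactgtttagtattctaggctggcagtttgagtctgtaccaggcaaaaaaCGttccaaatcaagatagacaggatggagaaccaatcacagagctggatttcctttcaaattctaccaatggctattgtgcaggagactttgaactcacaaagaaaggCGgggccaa
Pgk1: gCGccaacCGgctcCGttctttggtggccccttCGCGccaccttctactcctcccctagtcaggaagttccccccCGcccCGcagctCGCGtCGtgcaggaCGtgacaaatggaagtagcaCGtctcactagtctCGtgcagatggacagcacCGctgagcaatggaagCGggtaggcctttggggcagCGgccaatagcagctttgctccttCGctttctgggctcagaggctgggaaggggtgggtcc
Ldhc had 8 CpG and Ldha 25, and Pgk2 had 3 where Pgk1 had 17. The same order was found in the other pairs, with 1 in Gapdhs and 8 in Gapdh, 4 in Pdha2 and 15 in Pdha1, and 1 in Pgam2 and 22 in Pgam1, against a median of 6 over 27025 genes in the same table. The core letters of the cAMP response element, TGACGT on either strand, were found at 2 places in Ldhc, at 1 in Ldha and at 0 in the other 8 stretches, and 6.56% of all such stretches held them. The hypoxia factor core ACGTG, which can overlap it, stood at 3 places in Ldha, 2 in Pgk1 and 1 in Pgam1 (16.6% of all stretches held it on either strand). The GC box letters GGGCGG were at 2 places in Ldha and at 1 each in Ldhc and Pgk1 (32.9% of all stretches). The CCAAT box letters were at 2 places in Pgk2 and at 1 each in Pgk1 and Pgam2 (34.5% of all stretches). A match of letters is no evidence of binding.

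The arrays were checked before the isozymes were compared. Alkbh1 was lower in KO at probe set 1434660_at, from 8.60 ± 0.15 log2 (mean ± SD, n = 3) in WT to 5.42 ± 0.30 (n = 3) in KO. This difference passed the test described below (limma adjusted p = 0.00058). A second Alkbh1 probe set, 1438681_at, read 6.99 ± 0.17 in WT and 5.97 ± 0.17 in KO. Its difference of −1.02 did not pass (limma adjusted p = 0.0697). Germ cell and somatic marker genes of the testis were measured on all arrays. Mean levels were 12.30 to 14.98 log2 for 12 elongating spermatid markers and 7.03 to 13.26 for 12 Sertoli cell markers. WT replicates 1 and 2 stood at opposite ends for 15 probe sets of bacterial control RNAs, with means of 6.04 and 8.10 log2 against 6.69 to 7.06 on the other 4 arrays. WT replicate 1 also had the lowest upper tail, with a 99th percentile of 12.96 log2 against 13.08 to 13.10 on the others. For each gene the difference is therefore also given with 1 of these arrays left out.

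No germ cell or somatic isozyme passed the test between KO and WT in either direction. All 13 isozyme probe sets other than controls passed the level filter, and 0 of them passed at a Benjamini-Hochberg adjusted p of 0.05 in limma's moderated test over 27022 probe sets, against 0.0407% of all probe sets tested (11, with 0.0333% higher and 0.0074% lower in KO, or 20 higher and 26 lower with array weights), and 0 had an unadjusted p under 0.05 against 5.11%. Their adjusted p ran from 0.993 to 0.999 and their differences from −0.060 to 0.060 log2. The 3 KO values overlapped the 3 WT values at all 13, while 11% of all probe sets tested had no overlap. The other 3 of the 16 are Affymetrix control probe sets for Gapdh, which are outside that test. The median KO minus WT difference was 0.039 log2 over the 6 germ cell probe sets and −0.023 over the 7 tested somatic ones, beside 0.013 over all probe sets tested. A p that misses the threshold does not show equal levels, so each gene is given with its 95% interval.

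**Figure D1:**
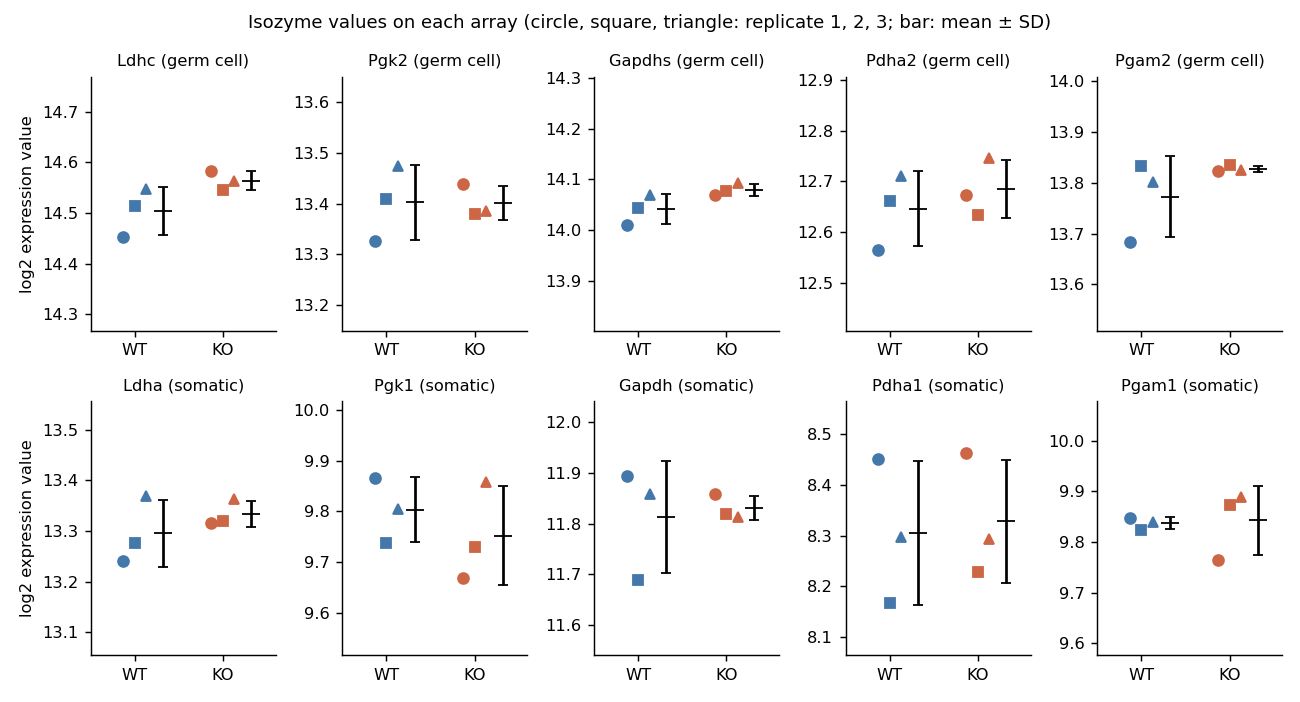
Log2 expression value of each isozyme on each of the 6 arrays, at the gene's probe set with the highest mean, germ cell forms above and somatic forms below. Every panel spans 0.5 log2, circles, squares and triangles are replicates 1, 2 and 3, and bars are the mean ± SD (n = 3). KO and WT overlap in every panel, and the WT circle (replicate 1) is the lowest point in all 5 germ cell panels.

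Ldhc encodes the lactate dehydrogenase subunit of spermatocytes, spermatids and sperm, which interconverts pyruvate and lactate. At probe set 1415847_at it read 14.45, 14.51 and 14.55 log2 in WT replicates 1 to 3 and 14.58, 14.55 and 14.56 in KO. WT replicate 1 was the lowest, and the KO value of replicate 2 lay within 0.01 of the highest WT value. The difference was 0.06 ± 0.04 (SE) with a 95% interval from −0.03 to 0.15, a change of −2.3% to 11.2% from WT. The second probe set, 1415846_a_at, read 14.25 in WT replicate 1 and at least 14.41 on each of the other 5 arrays, with a difference of 0.04 (interval −0.12 to 0.19). At 1415847_at the difference was 0.0341 without WT replicate 1 and 0.0640 without WT replicate 2. The highest value of any array was 15.00, and signals near the top of the range can be compressed.

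Ldha, the form of muscle and of most proliferating cells, read 13.24, 13.28 and 13.37 in WT and 13.32, 13.32 and 13.36 in KO. All KO values lay inside the WT range. The difference was 0.04 ± 0.05 with an interval from −0.07 to 0.15. It was 0.0108 without WT replicate 1 and 0.0280 without WT replicate 2, and its sign turned to −0.0069 after quantile normalization.

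Pgk2 encodes the phosphoglycerate kinase that makes ATP in spermatids and sperm, and its loss is known to impair sperm motility. Its values were 13.33, 13.41 and 13.47 in WT and 13.44, 13.38 and 13.39 in KO. The KO values fell between the lowest and highest WT values, with a difference of −0.0016 ± 0.05 and an interval from −0.12 to 0.12. Without WT replicate 1 the difference was −0.0401 and without WT replicate 2 it was 0.0016. With all arrays it was the smallest difference of the 16 apart from that of the Gapdh 5′ control probe set (−0.0012).

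The X-linked Pgk1 has 3 probe sets, and all had a lower mean in KO, with intervals that include 0. Probe set 1417864_at read 9.87, 9.74 and 9.80 in WT and 9.67, 9.73 and 9.86 in KO (−0.05 ± 0.07, interval −0.21 to 0.11). There the difference was −0.0201 without WT replicate 1 and −0.0837 without WT replicate 2, and −0.0094 without KO replicate 1. The others, 1438640_x_at and 1439435_x_at, had differences of −0.06 and −0.02, with intervals from −0.21 to 0.09 and from −0.24 to 0.19. The suffix _x_at marks probes that can also bind related transcripts, so that these 2 are less certain as measures of Pgk1.

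Gapdhs encodes the sperm glyceraldehyde-3-phosphate dehydrogenase, which is bound to the fibrous sheath and is needed for sperm motility. It had the smallest range over the 6 arrays among the 5 germ cell forms (0.08 log2), at 14.01, 14.04 and 14.07 in WT and 14.07, 14.08 and 14.09 in KO. The lowest KO value lay just under the highest WT value, so the groups met without separating. The difference of 0.04 ± 0.04 had the narrowest interval of the 16 probe sets, from −0.05 to 0.13, a change of −3.4% to 9.2% from WT. It was 0.0231 without WT replicate 1 and 0.0396 without WT replicate 2.

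Gapdh, the housekeeping form, is named alone only on the 3 control probe sets, which lie in the 5′, middle and 3′ parts of its transcript. A further 3 probe sets name it with other genes or pseudogenes and were not used. The middle probe set read 11.89, 11.69 and 11.86 in WT and 11.86, 11.82 and 11.81 in KO. WT replicate 2 was the lowest there and also at the 5′ probe set, at 11.49 against 11.62 to 11.72 on the other arrays. The difference at the middle probe set was 0.0575 without WT replicate 1 and −0.0457 without WT replicate 2. At the 3′ probe set all arrays lay between 11.76 and 11.83. When these 3 were added to the fit, a choice made after the annotation was seen, 0 of 3 passed (limma adjusted p 0.993 to 0.999), with differences of 0.02 in the middle, −0.03 at the 3′ end and −0.0012 at the 5′ end. The 3′ minus 5′ gap, a usual sign of how far the RNA was copied or degraded, was largest in WT replicate 2 (0.34 log2) and lay between 0.07 and 0.16 on the remaining arrays, and its part in the results was not tested.

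Pdha2 encodes the germ cell E1 alpha subunit of pyruvate dehydrogenase, which turns pyruvate into acetyl-CoA. It read 12.57, 12.66 and 12.71 in WT and 12.67, 12.63 and 12.75 in KO. The groups were interleaved, with a difference of 0.04 ± 0.06 and an interval from −0.09 to 0.17. Without WT replicate 1 the difference was −0.0012, and without WT replicate 2 it was 0.0467.

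The X-linked partner Pdha1 was the most variable gene of the 10. At 1418560_at it read 8.45, 8.17 and 8.30 in WT and 8.46, 8.23 and 8.29 in KO, so that its spread between mice of 1 genotype was larger than the difference between genotypes (0.02 ± 0.10). That difference was 0.0959 without WT replicate 1, −0.0458 without WT replicate 2 and −0.0440 without KO replicate 1. At 1449137_at the values were 7.58, 7.27 and 7.42 in WT and 7.42, 7.27 and 7.40 in KO, with a difference of −0.06 ± 0.09. The intervals were the widest of the 16, from −0.20 to 0.24 and from −0.27 to 0.16, and the probe sets differ in the sign of the difference.

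Pgam2 encodes the phosphoglycerate mutase of skeletal muscle, heart and sperm. It read 13.68, 13.83 and 13.80 in WT and 13.82, 13.83 and 13.83 in KO. The KO mice differed by an SD of 0.0062 and WT by 0.08, a spread set by WT replicate 1. The difference was 0.06 ± 0.05, with an interval from −0.06 to 0.17, and 0.0099 or 0.0855 without WT replicate 1 or 2. Of 8 skeletal muscle markers, 3 passed the level filter, at 6.73 to 8.20 log2. Of these 3, 0 passed the test, against 0.0432% of 13897 genes tested.

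Pgam1, the form of brain and most tissues, read 9.85, 9.82 and 9.84 in WT and 9.76, 9.87 and 9.89 in KO. Here the KO mice spread more widely (SD 0.07) than WT (SD 0.01). The difference was 0.0056 ± 0.06, and its interval ran from −0.13 to 0.14. It was 0.0109 without WT replicate 1 and −0.0005 without WT replicate 2, and 0.0445 without KO replicate 1.

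**Figure D2:**
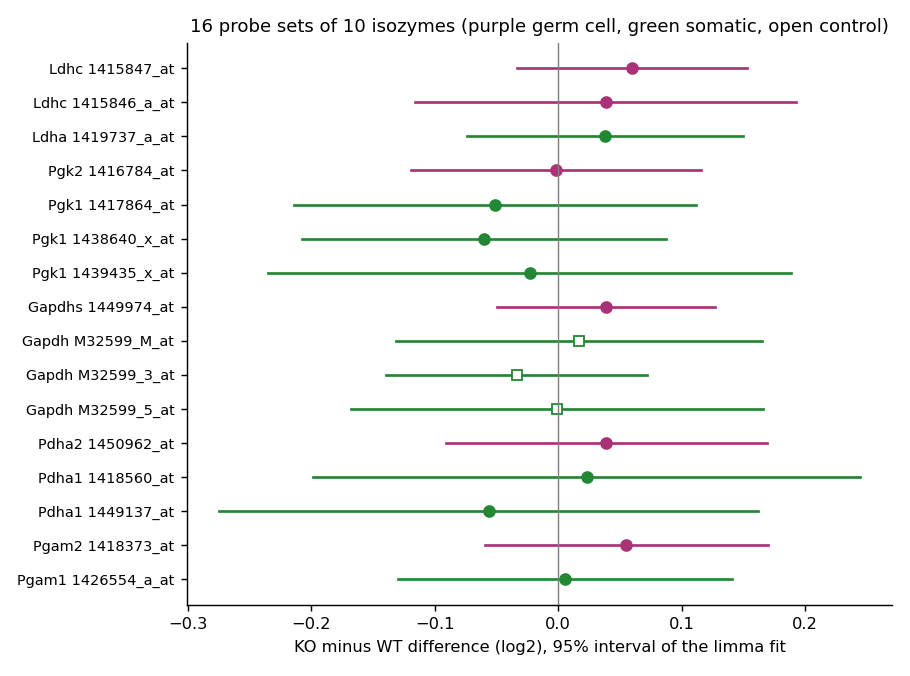
KO minus WT difference in log2 of each of the 16 probe sets, with the 95% interval of the limma fit (purple for germ cell forms, green for somatic forms, open squares for the Gapdh control probe sets, taken from the fit with them added). Every interval includes 0, and the widest belong to Pdha1.

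The balance between each germ cell form and its somatic partner was then compared between genotypes. Since probes differ in how strongly they bind, the level of 1 probe set cannot be set against that of another. For this reason the germ cell minus somatic log2 difference was taken within each array, and only its shift between arrays is given, with the mean of all 6 arrays set to 0. No pair shifted with genotype by more than the spread between mice, and KO and WT overlapped in all 5 pairs.

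For Ldhc over Ldha the shift was −0.0079, 0.02 and −0.04 log2 in WT and 0.05, 0.0060 and −0.02 in KO. This was the tightest pair, with SDs of 0.03 in both groups and a KO minus WT change of 0.02 (two-sided exact permutation p = 0.5). For Pgk2 over Pgk1 the values were −0.16, 0.05 and 0.04 in WT and 0.15, 0.03 and −0.10 in KO. The change of 0.05 was smaller than the SD of 0.12 in each group (exact permutation p = 0.7), and it became −0.02 or −0.01 when replicate 1 of WT or of KO was left out. For Gapdhs over Gapdh, WT replicate 1 stood at −0.12 and WT replicate 2 at 0.12, and the other 4 arrays from −0.03 to 0.04. The change was 0.02 (exact permutation p = 0.9), and −0.03 without WT replicate 1.

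The mitochondrial pair varied most. Pdha2 over Pdha1 stood at −0.23, 0.15 and 0.06 in WT and at −0.14, 0.06 and 0.10 in KO, with replicate 1 the lowest of each group. Its SD of 0.20 in WT and 0.13 in KO compares with a change of 0.02 (exact permutation p = 0.9). Leaving out WT replicate 1 made that change −0.10, and leaving out KO replicate 2 or 3 made it −0.0087 or −0.03. For Pgam2 over Pgam1 WT replicate 1 was the lowest at −0.13 and KO replicate 1 the highest at 0.10. Its change was 0.05 (exact permutation p = 0.6), and −0.0010 without WT replicate 1. The p adjusted over the 5 pairs was 0.9 for each exact permutation test, and 3 against 3 arrays cannot go below 0.1.

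The 5 changes were positive with these probe sets, as they were in all 11 combinations of a germ cell and a somatic probe set, from 0.00055 to 0.10 log2. The combinations share arrays and probe sets and are not independent. In 1 of the 11, Gapdhs over the 3′ Gapdh control, all KO values lay above all WT values (change 0.07, exact permutation p = 0.1, the smallest that the design allows). Among single probe sets tested, 11% had no overlap between the groups, so 1 such case in 11 is near that share. Without WT replicate 1 the change was negative in 4 of the 5 pairs, all but Ldhc over Ldha.

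**Figure D3:**
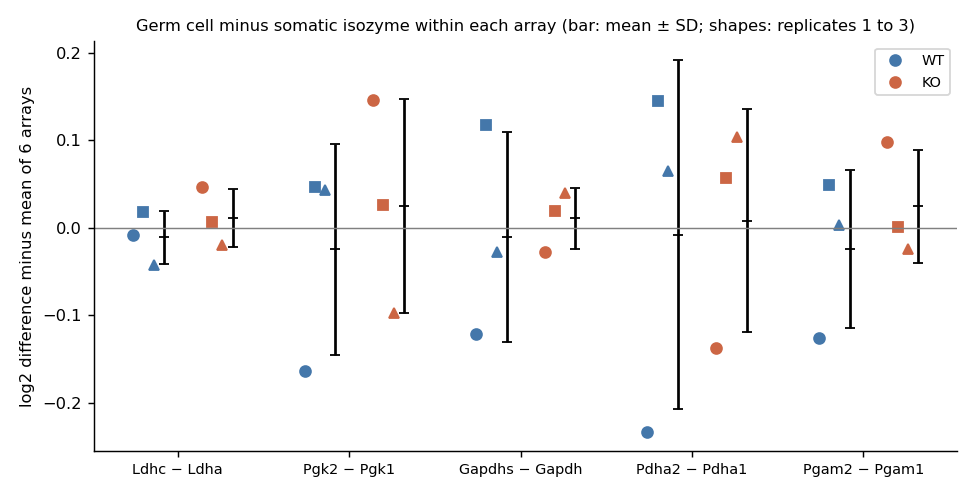
Germ cell minus somatic isozyme within each array, in log2, with the mean of all 6 arrays set to 0. Points are arrays (circle, square and triangle for replicates 1, 2 and 3) and bars are the mean ± SD (n = 3). KO and WT overlap in all 5 pairs, and the WT circle is the lowest WT point in 4 of them.

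In the deposited values all 5 germ cell forms had their lowest value in WT replicate 1. Their mean, with each gene's mean of 6 arrays set to 0, was −0.08 log2 in that array, −0.0003 and 0.03 in WT replicates 2 and 3, and 0.03, 0.0018 and 0.03 in KO. The KO minus WT difference of this mean was 0.04 with all arrays and 0.0052 without WT replicate 1. The 5 somatic forms had a different order, with a mean of 0.05 in WT replicate 1, −0.08 in WT replicate 2 and −0.02 to 0.03 on the others. Of the somatic cell lists, 5 measured Leydig cell markers of 8 listed had a mean of 0.21, −0.21 and 0.08 in WT replicates 1 to 3. In KO their mean was −0.04, −0.16 and 0.13. The 5 peritubular cell markers had another order, with −0.03, 0.02 and 0.06 in WT and 0.04, −0.02 and −0.06 in KO. The mean of 12 Sertoli cell markers was 0.02 to 0.06 in WT and −0.05 to −0.02 in KO. Lower on average in KO were 9 of 12, against 6125 of 13897 genes tested. The test was passed by 0 of 12 (limma adjusted p under 0.05), against 0.0432% of all genes tested. The part of these cell types in the values of the somatic isozymes was not tested.

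Spermatid markers were also low in WT replicate 1, but they were as low in WT replicate 2. The mean of 12 round spermatid markers stood at −0.07 in both arrays and at 0.02 to 0.08 on the other 4, and that of 12 elongating spermatid markers stood at −0.05 and −0.04, with 0.01 to 0.03 on the others. Of these markers 11 of 12 and 12 of 12 had a positive KO minus WT difference (medians 0.08 and 0.05), and 0 passed the test (limma adjusted p under 0.05). Over all genes tested, 7772 of 13897 differences were positive, with a median of 0.012, and 0.0432% passed. The 12 spermatocyte markers had a mean of −0.16 in WT replicate 1, with 9 of 12 lowest there, and −0.05 to 0.09 elsewhere. The 11 measured spermatogonia markers went the other way, with a mean of 0.12 in WT replicate 1, where 0 of 11 were lowest, and −0.05 to 0.02 on the other arrays. After quantile normalization, a check chosen after the data were seen, the mean of the 5 germ cell forms ran from −0.02 to 0.02 over the arrays, 0 of 5 were lowest in WT replicate 1, and KO minus WT was −0.0030. The part of cell composition or of signal range in the low values of that array was not tested.

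**Figure D4:**
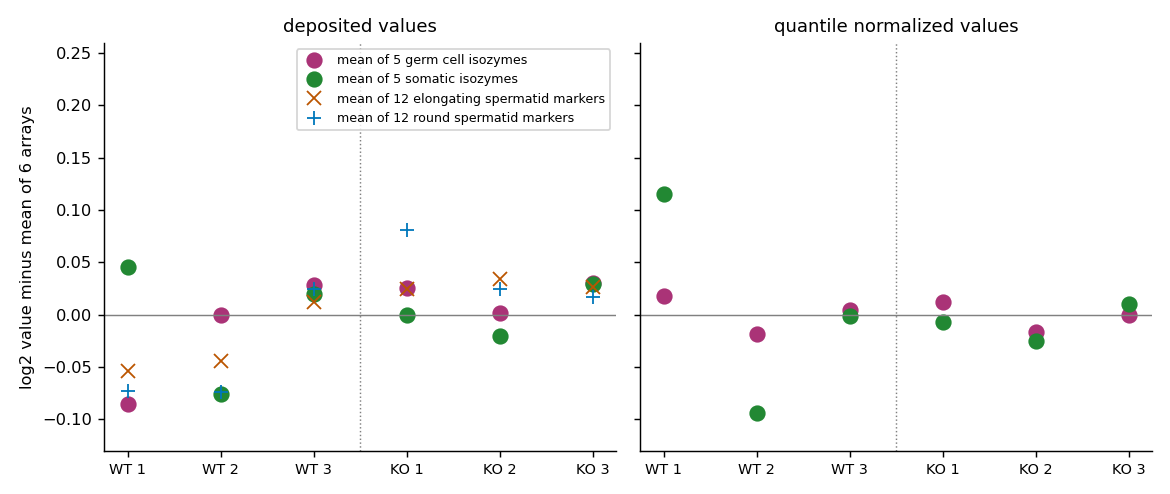
Mean log2 value of the 5 germ cell isozymes, the 5 somatic isozymes and 2 spermatid marker lists on each array, with the mean of 6 arrays set to 0, in the deposited values (left) and for the isozymes after quantile normalization (right). The germ cell mean lies at −0.08 in WT replicate 1 on the left and at 0.02 on the right, while the somatic mean of that array rises from 0.05 to 0.12.

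Genes most like the isozymes in their profile over the 6 arrays were found by the root mean square distance between profiles, each with its own mean set to 0. Nearest to the mean of the germ cell forms among 13888 genes were Rnf32 (0.0076 log2), Dbil5 (0.0078) and Tent5c (0.0086), against a median distance of 0.09. Nearest to the somatic forms were Imp4 (0.01), Parp1 (0.01) and Atp6v0a2 (0.01), with a median of 0.10. With 6 arrays and small differences, many profiles lie close by construction.

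The other enzymes, regulators and transporters of glycolysis and pyruvate use did not pass the test either. Of 54 listed genes 45 were measured above the level filter, 2 lay below it and 7 were named alone by no probe set. Among the 45, each at its probe set with the highest mean, 0 rose and 0 fell (limma adjusted p 0.993 to 0.999), against 0.0432% of 13897 genes tested. At these probe sets 0 had an unadjusted p under 0.05 against 5.51%. Dimmer probe sets of Gpd2, 1428323_at and 1428324_at, had unadjusted limma p of 0.0044 and 0.0053 and are given under other observations. In 4 of the 45, KO and WT did not overlap (Aldoa at an _x_at probe set, Ldhal6b and Pdhx higher and Pdpr lower in KO, the last pair named after their values were seen), compared with 12.2% of all genes. For Pdpr the difference was −0.06 there, and its 3 other tested probe sets had the opposite sign, from 0.03 to 0.13. Differences were positive for 31 and negative for 14, against 7772 and 6125 of 13897 genes tested. The median difference was 0.034 log2 beside 0.012 over all genes tested. Without WT replicate 1 the pathway median was 0.013, beside 0.0016 over all probe sets tested in the same fit. With WT replicate 3 as the only WT array it was −0.0016, beside −0.0033 over all probe sets tested.

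At the probe set with the highest mean, the genes with the smallest unadjusted p were Pdhb and Pdk1. Pdhb is the E1 beta subunit that pairs with the alpha subunits above (0.12 ± 0.06 log2). Pdk1 is a kinase that switches pyruvate dehydrogenase off (−0.11 ± 0.06). They were followed by Aldoart2 (0.11 ± 0.06), a germ cell copy of aldolase A, Aldoa itself (0.09 ± 0.05), Pdk2 (0.12 ± 0.07) and Aldoc (0.21 ± 0.13). A second probe set of Pdhb had a difference of −0.11, opposite in sign. Other probe sets of Pdk1 stood at −0.05 and 0.04, and the 4 other probe sets of Aldoa ran from −0.03 to 0.09.

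The other testis forms described here did not pass the test. Aldoart1, another retrogene of aldolase A, read 11.60 ± 0.32 in WT and 11.63 ± 0.12 in KO. Eno4, a sperm enolase, read 10.94 ± 0.14 and 11.06 ± 0.07, a difference of 0.12 ± 0.08 with an interval from −0.06 to 0.30. Ldhal6b, a lactate dehydrogenase like protein of the testis, read 13.48 ± 0.06 in WT and 13.55 ± 0.02 in KO, without overlap between the groups (0.07 ± 0.05, limma adjusted p = 0.993). Slc2a3, the main glucose transporter of sperm, read 14.06 ± 0.05 and 14.08 ± 0.02. Mpc1l, a testis form of the mitochondrial pyruvate carrier, was not measured.

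**Figure D5:**
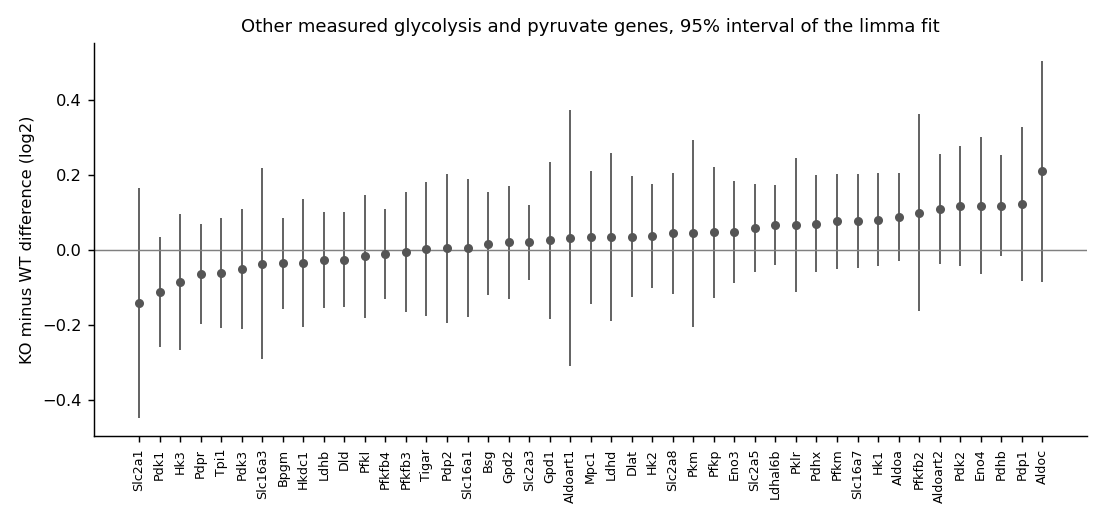
KO minus WT difference in log2 of the 45 other glycolysis and pyruvate genes, ordered by size, with the 95% interval of the limma fit and each gene at its probe set with the highest mean. Every interval includes 0, from Slc2a1 at −0.14 to Aldoc at 0.21.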

How the data were processed

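The values were used as the authors deposited them, 1 normalized log2 value for each of 45101 probe sets on each of 6 arrays of testis RNA. The submitters' processing notes name GCOS version 1.4, while the sources used here do not give the background correction, probe summary or normalization. That the scale is log2 was inferred from the range (2.61 to 15.00, array medians 6.62 to 6.65), and detection calls were not used, so signal over background is unknown. Samples were grouped by their titles, which call them biological replicates.

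Leaving out 64 control probe sets, the upper 60% of the rest by mean were tested (27022, lowest mean 6.02). The genotypes were compared with limma (version 3.58.1, R 4.3.3; lmFit, eBayes with an intensity trend, two-sided, Benjamini-Hochberg), which was tested on simulated data. Pairs were compared by two-sided exact permutation tests. Gene names came from the platform annotation, updated by gene id through RefSeq (GRCm38.p6), which held upstream stretches for all 10 members. Where 1 probe set stands for a gene, it is the one with the highest mean. Named were all members, the 6 other pathway genes with the smallest p, the testis forms in the list, Alkbh1 and the 3 genes nearest to each profile. The members were taken by gene symbol alone, but members, lists and tests were chosen with earlier results of these data known. The 9 marker lists (spermatogonia, spermatocytes, round and elongating spermatids, Sertoli, Leydig and peritubular cells, skeletal muscle and erythroid cells) gave 0 called genes, against 0.0432% of 13897 genes tested. In lists this short a count of 0 is near that share and is no result about cell composition. Figures were drawn with matplotlib 3.10.9.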

Additional observations from a re-analysis of the deposited data

How the results depend on the processing

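No member probe set passed under any of 14 other settings, and neither did the other pathway genes at the probe set with the highest mean (a dimmer one of Gpd2, given under other observations, passed in 1), and 127 refits of single members had limma adjusted p from 0.575 to 1.0 with differences from −0.10 to 0.10. Ldhc, Gapdhs, Pgam2 and Pgk1 kept their sign in 14 of 14 settings, and Ldhc over Ldha in 10 of 10. Some settings cannot change a sign. The level filters, the intensity trend and the replicate block leave the size of a difference as it was. The mean of all probe sets does the same for genes with 1 probe set, such as Gapdhs and Pgam2. These counts therefore overstate how far the signs were put to a test. The other signs turned in at least 1 setting. Quantile normalization turned Ldha to −0.0069, Pgam1 to −0.0054, Gapdh to −0.0086 and Pdha2 over Pdha1 to −0.0081. Array weights turned Ldha to −0.0112 and Pdha2 to −0.0171, and the mean of all probe sets turned Pdha1 to −0.0166. Without WT replicates 1 and 2, Ldha was −0.0359, Pdha2 −0.0261, Gapdh −0.0279, Pgk2 over Pgk1 −0.0187, Pdha2 over Pdha1 −0.0570 and the pathway median −0.0016.

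Leaving out 1 array at a time gave −0.0457 to 0.0575 for Gapdh, −0.0458 to 0.0959 for Pdha1, −0.0012 to 0.0716 for Pdha2, −0.0179 to 0.0445 for Pgam1 and −0.0401 to 0.0336 for Pgk2. For the pairs it gave −0.0344 to 0.0853 for Gapdhs over Gapdh, −0.0971 to 0.0924 for Pdha2 over Pdha1, −0.0010 to 0.0860 for Pgam2 over Pgam1 and −0.0200 to 0.111 for Pgk2 over Pgk1. The count of all probe sets called, 11, ran from 2 to 12 when 1 array was left out. It was 7 with the upper 40% kept, 46 with array weights (20 higher, 26 lower), 6 with the mean of all probe sets of a gene and 2 without WT replicates 1 and 2. Apart from the fit with array weights, these fits used fewer genes or arrays, and the cause of the differing counts was not tested. With the replicate number as a block, 9 probe sets and 0 members were called. Deviations of same-numbered arrays correlated at 0.22, −0.02 and 0.10. WT replicates 1 and 3 correlated best with the KO array of the same number, and WT replicate 2 with KO replicate 3 (0.25). Deviations from a mean of 3 arrays depend on each other, so these correlations cannot decide whether the numbers pair the mice. Gapdh has no value under the mean of all probe sets, since only control probe sets name it alone. The 95% intervals given for each probe set hold the differences compatible with its values, and they are not limits of detection. With 3 mice a group, larger changes can also miss the threshold. A probe set of Gpd2, 1428323_at, differed by 1.05 log2 with a limma adjusted p of 0.835.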

Other observations

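Gpd2, the mitochondrial glycerol-3-phosphate dehydrogenase of the pathway list, had probe sets that did not move alike; it was chosen after its values were seen. Its brightest probe set, 1417434_at, read 13.40, 13.58 and 13.64 log2 in WT and 13.57, 13.55 and 13.55 in KO, a difference of 0.02 ± 0.06. At 1428323_at WT read 6.38, 6.54 and 6.56 and KO 6.84, 7.84 and 7.94, a difference of 1.05 ± 0.26 without overlap between the groups (limma adjusted p = 0.835, and 0.0169 without KO replicate 1; from 0.0169 to 1.0 over the alternatives). At 1428324_at the difference was 0.27 ± 0.07, also without overlap (limma adjusted p = 0.853), where 11% of all probe sets had none. At 1452741_s_at, below the level filter, WT stood at 4.94 ± 0.23 and KO at 5.46 ± 0.55, with overlap. Which transcripts the dimmer probe sets read is not known here.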
